A study of Mus musculus with 4 samples.

Results

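The 10 genes described here encode enzymes and carriers of arginine, nitric oxide and polyamine metabolism, out of 21878 genes listed in RNA sequencing of mouse macrophages. The genes were taken by symbol. Arg1, Nos2 and Ass1 were picked from their measured rise in the libraries labelled anti-Act1, and the other 7 (Arg2, Asl, Slc7a1, Slc7a2, Odc1, Sat1 and Srm) were added for their roles in uptake, recycling and polyamine metabolism. All 10 had enough counts to pass the filter on low counts. Because the first 3 were selected on the difference between the groups, that difference is given for them as a description and without a test.

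The macrophages were grown with M-CSF from the bone marrow of C57BL/6 mice (C57BL/6 J in the study's methods), at 8 weeks of age by the labels, and shared a well with an insert of MC38 cells, a mouse colon carcinoma line. There were 2 libraries labelled WT, from wild type mice, and 2 labelled anti-Act1, from mice that the study describes as a macrophage-specific knockdown of Act1, an adaptor protein of IL-17 receptor signalling. The promoter behind the knockdown, the sex of the mice and any pooling of animals are not given in the sources used here. The labels give 48 h of coculture, whereas a legend of the paper gives a shorter time. A passage of the study's methods on pathway enrichment names other source mice than the labels do. It gives ApcMin/+ mice and their cross with anti-Act1 mice. The study calls the pairs of libraries biological replicates, and the labels do not say whether they came from separate animals.

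Total counts were 55435063 to 75062945 per library, with both WT-labelled libraries the deeper ones. Traf3ip2, the gene of Act1, was at 6.98 and 7.54 CPM (counts relative to the TMM-scaled library size, per 1000000) with the WT label and at 9.63 and 7.84 CPM with the anti-Act1 label, a log2 fold change of 0.27 that did not pass the test (adjusted p by edgeR, 0.117). No lower level of the targeted transcript was thus seen where a knockdown is labelled, and each direction given here rests on the labels. For macrophages grown from the marrow of anti-Act1 mice, the study itself reports a marked reduction of Act1 expression. Macrophage markers were abundant in every library, with Lyz2 between 15811 and 17736 CPM, but they were not level between the groups. Of 8 such markers Cd14 rose, at a log2 fold change of 0.16 (adjusted p by edgeR, 0.0113). Itgam fell by 0.31 and Mertk by 0.40 on the log2 scale (adjusted p by edgeR, 3.96e-06 and 4.09e-08), and the other 5 did not pass the test. Without regard to the test, 5 of the 8 were lower and 2 higher in both anti-Act1-labelled libraries, beside 28.7% and 28.4% of all genes tested. The 8 summed to 24573 and 25554 CPM with the WT label and to 25418 and 26257 CPM with the other. The part of these shifts in the results was not tested. The summed level of 8 epithelial tumour cell markers was 0.128 to 0.464 CPM, with Krt8, Krt18, Krt20 and Cldn3 at 0 counts in all libraries. The 4 genes of the Y chromosome examined summed to 228 and 246 CPM with the WT label and to 0.0162 and 0 CPM with the anti-Act1 label, so whatever comes with the Y chromosome cannot be told apart from the genotype.

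Arginine stands at a fork in macrophages. Arginases split it to ornithine and urea, and the inducible nitric oxide synthase turns it into nitric oxide and citrulline. Citrulline can be rebuilt into arginine by argininosuccinate synthetase and argininosuccinate lyase, while ornithine feeds ornithine decarboxylase, the first step towards the polyamines putrescine, spermidine and spermine. High arginase is a textbook mark of alternatively activated and tumour-associated macrophages, and high inducible nitric oxide synthase a mark of classically activated ones.

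Levels per gene length, as FPKM (fragments per kilobase of gene and per 1000000 counted), differed widely among the genes. Arg1 and Sat1 were by far the most abundant, at 1036 ± 13.1 and 536 ± 2.12 FPKM with the WT label (SD, n = 2), which placed Arg1 at rank 38 and Sat1 at rank 99 of all genes listed. Then came Asl at 25.2, Odc1 at 23.6 and Nos2 at 17.6 FPKM, followed by Srm at 8.80 and Arg2 at 7.33 FPKM. Ass1 was at 2.39 FPKM, and the transporters Slc7a2 and Slc7a1 were lowest, at 1.70 and 1.42 FPKM. No neighbours in this order overlapped between WT-labelled libraries, although Asl and Odc1 differed by little more than the SD of Odc1, 1.48 FPKM.

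The order was partly different with the anti-Act1 label. Nos2 passed Odc1 and Asl to stand behind Sat1, at 42.2 and 45.3 FPKM. Ass1 moved above Arg2, at 8.48 ± 0.844 FPKM, and its libraries overlapped with those of Srm at 8.56 ± 0.0976 FPKM. Arg1, now at 1584 ± 34.1 FPKM and rank 22, Sat1, Srm and both transporters kept their places.

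**Figure D1:**
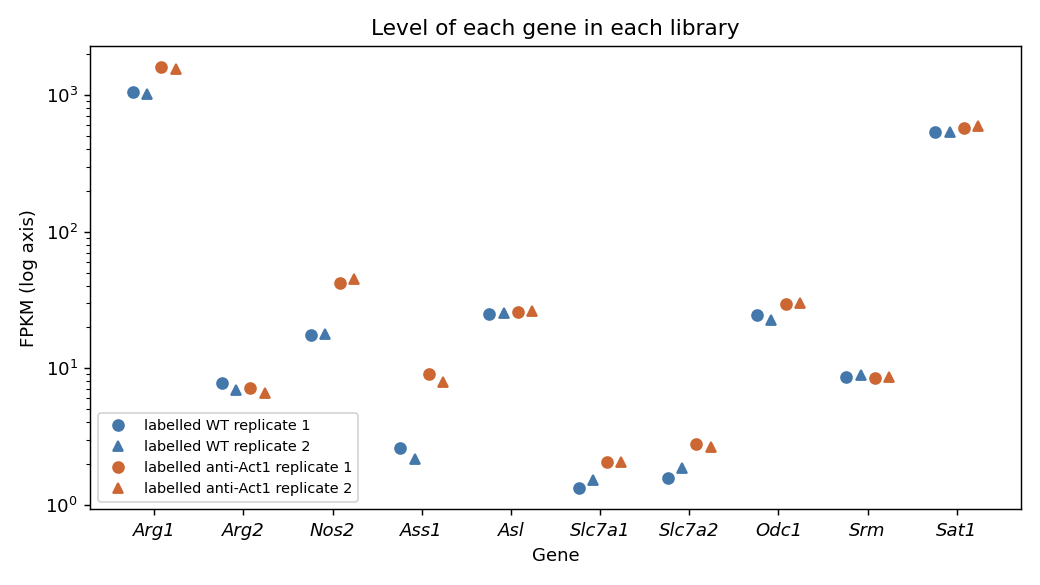
Level of each of the 10 genes in each of the 4 libraries as FPKM on a log axis; circles are replicate 1 and triangles replicate 2, blue for the WT label and orange for the anti-Act1 label. Arg1 and Sat1 sit at 535 FPKM or more and the transporters Slc7a1 and Slc7a2 at 2.77 FPKM or less, and the gap between colours is widest for Ass1 and Nos2.

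Arg1, the cytosolic arginase, was at 1535 and 1500 CPM with the WT label and at 2381 and 2338 CPM with the anti-Act1 label. Both anti-Act1-labelled libraries were thus higher, and the replicates of each pair lay close together. Its log2 fold change was 0.64 (SE 0.05), a 1.55-fold difference, and Arg1 took 0.237% and 0.230% of all counts against 0.154% and 0.152%. In bulk RNA a difference in the number of cells of a type and one in RNA per cell cannot be told apart. Neutrophils also make Arg1, and 7 neutrophil markers summed to 6.59 and 6.67 CPM with the WT label and to 6.57 and 7.43 CPM with the anti-Act1 label. S100a8 rose among these, S100a9 and Ltf fell, and Ly6g and Mpo were at 0 in both anti-Act1-labelled libraries. In GENCODE M21 (GRCm38) Arg1 lies on chromosome 10, from 24915221 to 24927484 on the minus strand, with 8 exons and no overlapping gene. The study also followed this transcript by RT-qPCR, and its primer pair is printed here because it marks which part of Arg1 was amplified.

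Arg1 forward: cattggcttgcgagacgtag
Arg1 reverse: ttgccaatccccagcttgtc

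The forward primer matched exon 5 and the reverse primer exon 6 of the Arg1 transcript, for a product of 102 bases, and Arg1 was the only gene of GENCODE M21 with an exact match to either primer.

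Arg2, the mitochondrial arginase, was at 10.9 and 9.64 CPM with the WT label and at 10.2 and 9.41 CPM with the anti-Act1 label, so the groups overlapped. Its log2 fold change was −0.07 (SE 0.11, adjusted p by edgeR, 0.722), and 0.02 once WT replicate 1 was left out. Arg2 lies on chromosome 12 from 79130777 to 79156301 on the plus strand. Its locus shares sequence with Vti1b on the opposite strand, with 285 identical bases, and reads from there cannot be assigned without strand. Arg1 and Arg2 themselves share no run longer than 12 bases, far shorter than the 150 base reads. The ratio of Arg1 to Arg2 in FPKM was 142 ± 10.4 with the WT label and 231 ± 9.67 with the anti-Act1 label (SD, n = 2). Arginase transcripts were thus almost wholly Arg1 in these macrophages, at 99.3% of the summed FPKM in both WT-labelled libraries and 99.6% in the others.

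Nos2, the inducible nitric oxide synthase, was at 69.0 and 69.9 CPM with the WT label. In the anti-Act1-labelled libraries it was at 168 and 183 CPM, clear of the WT-labelled pair. The log2 fold change was 1.34 (SE 0.06), or 2.53-fold, which was rank 32 among the rises of 10892 tested genes with a mean of at least 1 CPM. Because Nos2 was picked on its rise, a high rank follows from the choice and is only a description. Nos2 lies on chromosome 11 from 78920787 to 78960254 on the plus strand and overlaps no annotated gene. Nos1 and Nos3, the neuronal and endothelial synthases, stayed at 0.134 FPKM or less in every library, so Nos2 made up nearly all nitric oxide synthase transcript.

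Within each library Arg1 still far exceeded Nos2 per length. The ratio of Arg1 to Nos2 in FPKM was 59.9 and 57.8 with the WT label and 38.1 and 34.4 with the anti-Act1 label. Both genes were higher with the anti-Act1 label, and the ratio was lower because Nos2 differed more, by −0.70 on the log2 scale.

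Ass1, argininosuccinate synthetase, joins citrulline to aspartate and limits the rebuilding of arginine. It was at 4.23 and 3.49 CPM with the WT label and at 14.8 and 13.1 CPM with the anti-Act1 label, where the lower of the latter was still well above the higher of the former. This was the largest difference among the 10 genes, with a log2 fold change of 1.86 (SE 0.12), or 3.63-fold, and rank 11 among the same 10892 genes. As for Nos2, that rank is only a description, since Ass1 was picked on its rise. On the log2(FPKM + 1) scale, which shrinks the change of low genes, the difference was 1.49. Ass1 lies on chromosome 2 from 31470207 to 31520672 on the plus strand. A processed pseudogene of Ass1, Gm5424, matches its transcript at 99.5% over 1240 bases, and how the authors' alignment treated reads that fit both was not tested.

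Asl, argininosuccinate lyase, completes the recycling of arginine. It was at 47.5 and 47.6 CPM with the WT label and at 49.3 and 50.6 CPM with the anti-Act1 label. The pairs did not overlap, but the log2 fold change was only 0.07 (SE 0.06, adjusted p by edgeR, 0.477). Asl lies on chromosome 5 from 130011258 to 130029247 on the minus strand. The ratio of Asl to Ass1 in FPKM stood at 10.7 ± 1.46 with the WT label and 3.08 ± 0.334 with the anti-Act1 label (SD, n = 2).

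A RefSeq promoter window (GRCm38.p6, 250 bases before to 50 after a start site) was at hand for Ass1, Slc7a1, Odc1 and Sat1, in 5 windows. On both strands these were searched for an E-box (CACGTG), AP-1 (TGANTCA), GAS (TTCNNNGAA), an ISRE core (GAAANNGAA), C/EBP (TTGCNNAA), the amino acid response element (TGATGNAAT), a TATA box (TATAAA) and the NF-κB motif. The Ass1 promoter is shown since Ass1 differed most, as the 250 bases upstream of its RefSeq start on the plus strand, chr2:31470020-31470269. This start lies downstream of the GENCODE start at 31470207, so the end of the printed stretch, E-box included, is inside the gene as GENCODE has it. Capitals mark the E-box.

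Ass1: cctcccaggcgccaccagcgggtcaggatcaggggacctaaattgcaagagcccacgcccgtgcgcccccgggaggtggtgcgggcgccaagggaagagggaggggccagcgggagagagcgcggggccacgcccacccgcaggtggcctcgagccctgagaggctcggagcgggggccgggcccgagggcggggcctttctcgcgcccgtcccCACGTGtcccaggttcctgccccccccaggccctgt

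The Ass1 window held CACGTG from −36 to −31 relative to the RefSeq start, and 7.15% of all 32851 windows hold this motif. None of the other motifs searched was found in it. The stretch was rich in G and C, at 75.6% against a median of 52.4% over all windows. No match says only that these letters are not in this window.

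Slc7a1 and Slc7a2 encode the cationic amino acid transporters CAT1 and CAT2, through which arginine enters the cell. Slc7a1 was at 9.35 and 10.7 CPM with the WT label and at 14.6 and 14.8 CPM with the anti-Act1 label. Slc7a2 was at 12.1 and 14.3 CPM against 21.7 and 21.0 CPM. Both transporters were higher in each anti-Act1-labelled library than in either WT-labelled one. The log2 fold change was 0.55 for Slc7a1 (SE 0.10, adjusted p by edgeR, 2.07e-05) and 0.69 for Slc7a2 (SE 0.09, adjusted p by edgeR, 1.58e-08).

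Together the transporters came to 2.88 and 3.36 FPKM with the WT label and 4.82 and 4.69 FPKM with the anti-Act1 label. The ratio of Slc7a2 to Slc7a1 was 1.20 ± 0.0223 and 1.32 ± 0.0450 (SD, n = 2), so that both transcripts were at a like level in either group. Their transcripts share no run longer than 23 bases. Slc7a1 lies on chromosome 5 from 148327410 to 148399904 on the minus strand, and Slc7a2 on chromosome 8 from 40862396 to 40922308 on the plus strand. The lincRNA Gm26584 overlaps Slc7a2 on the other strand. The Slc7a2 transcript also matches a transcript of Zdhhc3 at 90.7% over 150 bases. Of the 2 Slc7a1 windows, the one that ends at the annotated start of the gene is shown because Slc7a1 passed the test and the window held an AP-1 motif, in capitals, from −123 to −117. It is read on the minus strand at chr5:148399905-148400154.

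Slc7a1: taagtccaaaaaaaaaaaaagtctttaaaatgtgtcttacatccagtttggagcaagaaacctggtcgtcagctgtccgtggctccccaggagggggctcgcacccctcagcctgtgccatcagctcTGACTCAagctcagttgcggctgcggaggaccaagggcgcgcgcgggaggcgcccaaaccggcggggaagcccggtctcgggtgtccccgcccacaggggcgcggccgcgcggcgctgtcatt

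AP-1 motifs were in 7.81% of all windows. The second Slc7a1 window held a GAS match, which 8.30% of windows hold, and a TATA box, which 13.6% hold. The windows of Odc1 and Sat1 held none of the 8 motifs. The amino acid response element and the NF-κB, C/EBP and ISRE core motifs, which 0.965%, 4.51%, 10.8% and 8.56% of all windows hold, were in none of the 5.

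Odc1, ornithine decarboxylase, makes putrescine from ornithine and is the rate-limiting enzyme of polyamine synthesis. It was at 62.5 and 56.9 CPM with the WT label and at 75.9 and 77.0 CPM with the anti-Act1 label. Each anti-Act1-labelled library was above both WT-labelled ones, and the log2 fold change was 0.36 (SE 0.06, adjusted p by edgeR, 5.01e-06). Odc1 lies on chromosome 12 from 17544794 to 17551505 on the plus strand. Transcripts of 14 other genes match Odc1 over at least 150 bases at 90% or more, the closest being the processed pseudogene Gm7993, so its count carries this uncertainty.

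Srm, spermidine synthase, acts on the product of Odc1. It was at 11.5 and 11.7 CPM with the WT label and at 11.3 and 11.6 CPM with the anti-Act1 label, and the groups overlapped. Its log2 fold change was −0.02 (SE 0.10, adjusted p by edgeR, 0.939), and its sign turned without WT replicate 2 (0.00085) or anti-Act1 replicate 1 (0.0074). Srm lies on chromosome 4 from 148591503 to 148594993 on the plus strand, and a processed pseudogene, Gm5364, matches its transcript at 91.1% over 902 bases. The ratio of Odc1 to Srm in FPKM was 2.68 ± 0.222 with the WT label and 3.47 ± 0.0337 with the anti-Act1 label (SD, n = 2).

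Sat1, spermidine/spermine N1-acetyltransferase, starts the breakdown and export of polyamines. It was at 654 and 647 CPM with the WT label and at 706 and 740 CPM with the anti-Act1 label. The difference was small, with a log2 fold change of 0.15 (SE 0.05, adjusted p by edgeR, 0.0229). The call was lost without WT replicate 2 (adjusted p = 0.0689) and without anti-Act1 replicate 2 (adjusted p = 0.287). Sat1 is on the X chromosome, from 155213132 to 155216449 on the minus strand. Transcripts of 2 other genes match it, the closer being the processed pseudogene Gm5552 at 96.7% over 515 bases. On the X chromosome 366 tested genes had a median log2 fold change of −0.04, with 28 called higher and 48 lower. The 11569 autosomal genes tested had a median of −0.0038, with 1287 called higher and 1127 lower.

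Of the 7 genes added for their role, Slc7a1, Slc7a2, Odc1 and Sat1 rose at an edgeR adjusted p under 0.05 and none fell. Over all 12494 genes tested, 20.7% passed this threshold, 10.9% higher and 9.76% lower with the anti-Act1 label. The 7 genes had a median log2 fold change of 0.15, and the median over all genes was −0.0046. In 8 of the 10 genes both anti-Act1-labelled libraries were above both WT-labelled ones, and in none were they below. Over all genes tested, 28.4% were separated in this way upwards and 28.7% downwards. Since the set was assembled around genes that rose in this contrast, these counts are a description.

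**Figure D2:**
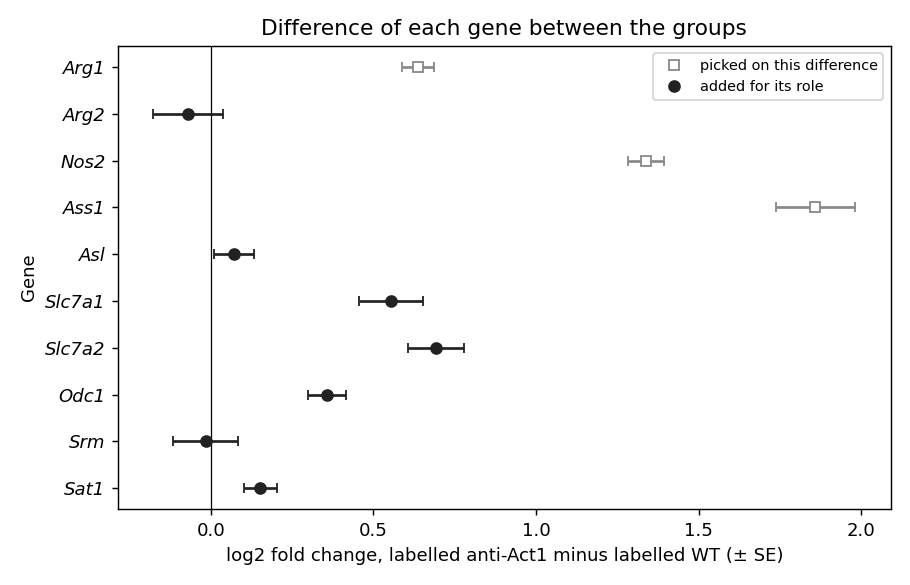
Log2 fold change of each gene between the groups with its standard error, from the edgeR model; open grey squares are the 3 genes picked on this difference and filled circles the 7 added for their role. Ass1 at 1.86 and Nos2 at 1.34 lie farthest to the right, Arg1 and both transporters between 0.55 and 0.69, and Arg2, Srm and Asl near 0.

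**Figure D3:**
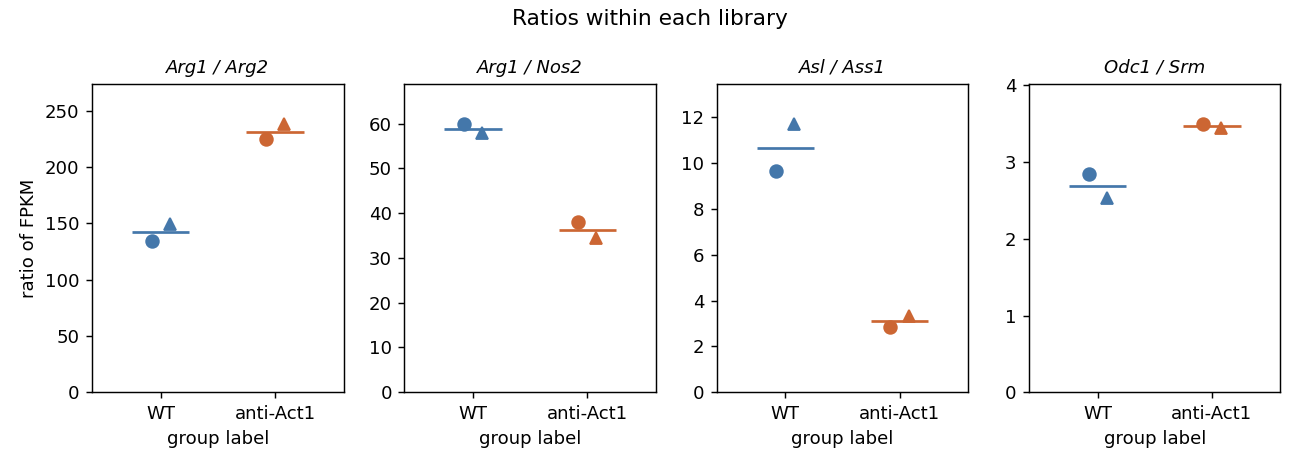
Ratios of FPKM between gene pairs within each library, with the mean of each group as a line; circles are replicate 1 and triangles replicate 2. Arg1 to Arg2 and Odc1 to Srm are higher with the anti-Act1 label, and Arg1 to Nos2 and Asl to Ass1 are lower.

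Beyond the 10 genes, the same pathways gave lists of 59 other genes by role, of which 49 passed the filter on low counts. Of these, 6 were higher and 3 lower with the anti-Act1 label at an edgeR adjusted p under 0.05, together 18.4% against the 20.7% over all genes. The share is close to that of all genes, and the median log2 fold change was −0.04. What follows therefore describes single steps of the pathway.

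In polyamine metabolism, 3 of 13 tested genes rose and 1 fell. Smox, spermine oxidase, was at 153 and 146 CPM with the WT label and at 200 and 211 CPM with the anti-Act1 label (log2 fold change of 0.46, SE 0.05, adjusted p by edgeR, 1.72e-09). Azin2, an inhibitor of the antizyme that holds ornithine decarboxylase down, went from 4.19 and 3.93 to 7.17 and 6.28 CPM, which is 0.73 on the log2 scale (SE 0.14, adjusted p by edgeR, 7.80e-05). Smox and Azin2 were separated between the groups, with neither near the other pair. Azin1, another antizyme inhibitor, was far more abundant than Azin2. It was at 173 and 187 CPM with the WT label and at 189 and 178 CPM with the anti-Act1 label. Its groups overlapped, with a log2 fold change of 0.03 (adjusted p by edgeR, 0.772). Paox, the oxidase of acetylated polyamines, fell from 21.0 and 19.2 to 15.7 and 13.7 CPM (log2 fold change −0.45, SE 0.09, adjusted p by edgeR, 8.18e-05). Sms, the X-linked spermine synthase, had a log2 fold change of 0.21 (SE 0.07, adjusted p by edgeR, 0.0185), with the call lost without WT replicate 1 (adjusted p = 0.135) and without anti-Act1 replicate 1 (adjusted p = 0.271). The antizymes Oaz1 and Oaz2 had log2 fold changes of −0.0037 and −0.06, and Amd1, which decarboxylates S-adenosylmethionine, 0.05, all without a call. None of the 4 genes of eIF5A and its hypusine modification, which consumes spermidine, passed the test, and their median was 0.09.

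Among nitric oxide synthases, their cofactor enzymes and inhibitors, 1 of 12 tested genes rose and none fell. This was Gch1, GTP cyclohydrolase, which starts the synthesis of tetrahydrobiopterin, the cofactor of nitric oxide synthases. Gch1 was at 38.6 and 42.7 CPM with the WT label and at 54.5 and 56.1 CPM with the anti-Act1 label (log2 fold change 0.44, SE 0.06, adjusted p by edgeR, 2.84e-07). Pts and Spr, the later steps of the same synthesis, had log2 fold changes of 0.07 each (adjusted p = 0.594 and 0.511). Ddah2, which clears methylarginine inhibitors, was at −0.22 (adjusted p = 0.214).

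Genes that use ornithine or arginine for proline and creatine gave 0 rises and 1 fall among 10 tested. The fall was that of Gatm, arginine:glycine amidinotransferase, the first enzyme of creatine synthesis, from 28.6 and 28.3 to 23.4 and 22.2 CPM (log2 fold change −0.32, SE 0.07, adjusted p by edgeR, 0.000779). Oat, ornithine aminotransferase, which leads ornithine to proline, was at 0.01 (adjusted p = 0.960). Of the mitochondrial urea cycle only the ornithine carrier Slc25a15 had enough counts, at 0.01 (adjusted p = 0.943). Otc was at 0 counts in every library, and Cps1 at 0 in all but anti-Act1 replicate 1, where it had 1 count.

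Of 9 genes of arginine transport and sensing, 2 rose and 1 fell. Slc7a7, which exchanges arginine out of the cell with Slc3a2, fell from 25.8 and 22.4 to 18.8 and 19.5 CPM (log2 fold change −0.33, SE 0.08, adjusted p by edgeR, 0.00145), and its adjusted p was 0.0652 without WT replicate 1. Slc3a2 itself, at 464 to 501 CPM, did not pass the test, with a log2 fold change of −0.05. Gatsl3, the arginine sensor also named Castor1, rose from 9.30 and 8.68 to 11.6 and 11.9 CPM (log2 fold change 0.38, SE 0.10, adjusted p by edgeR, 0.00542), with an adjusted p of 0.0644 without WT replicate 2. Slc7a5, a large neutral amino acid carrier, was low, at 1.13 and 1.96 against 2.49 and 2.73 CPM. Its log2 fold change of 0.74 (adjusted p by edgeR, 0.0163) was 0.41 if WT replicate 1 was left out and 1.21 if WT replicate 2 was, and the call was lost without WT replicate 1 (adjusted p = 0.303) and without anti-Act1 replicate 2 (adjusted p = 0.0790).

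**Figure D4:**
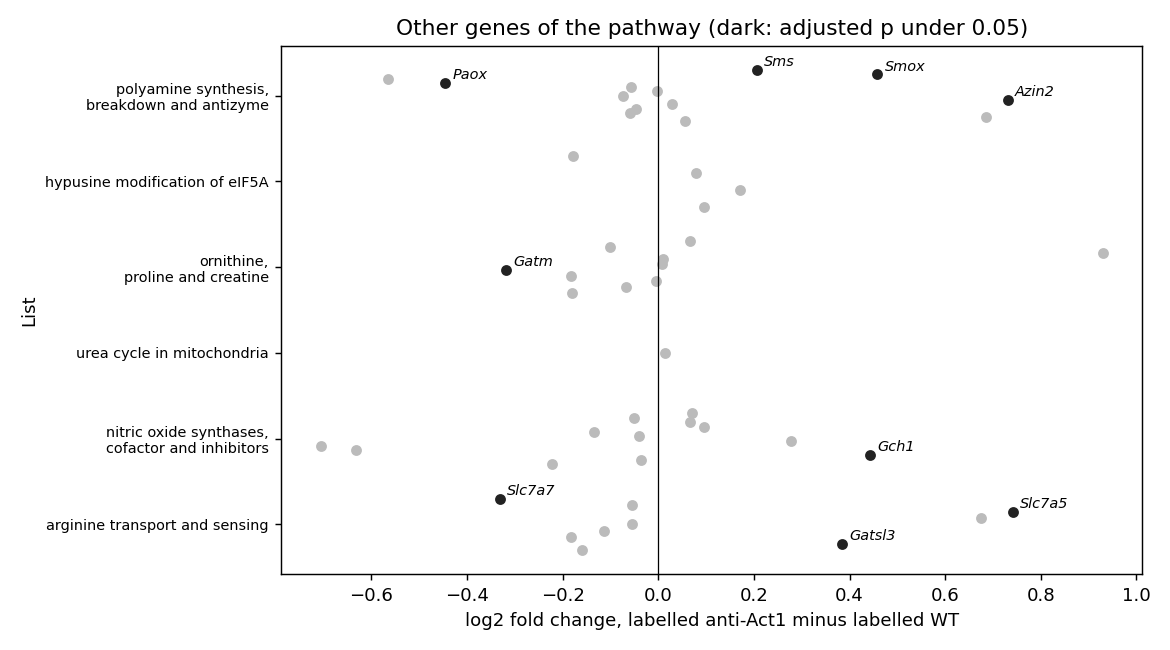
Log2 fold change of the 49 tested genes listed beside the 10, by list; dark points with a name had an edgeR adjusted p under 0.05 and grey points did not. Smox, Azin2, Sms, Gch1, Slc7a5 and Gatsl3 lie to the right and Paox, Gatm and Slc7a7 to the left, with most points within 0.2 of 0.

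Of 15 transcription factors and receptors known to act on these genes, 4 rose and 4 fell, which is 53.3% called beside the 20.7% of all genes tested. This list too was drawn up with results of these libraries known, so nothing is read from that share. Epas1, a hypoxia-inducible factor linked to Arg1, rose from 8.48 and 8.68 to 14.6 and 15.9 CPM (log2 fold change 0.83, adjusted p by edgeR, 6.14e-09). Klf4, a factor of alternative activation, rose by 0.47 on the log2 scale (adjusted p by edgeR, 8.83e-07). Atf4, the factor of the amino acid response, rose by 0.29 (adjusted p by edgeR, 1.96e-05). Epas1, Klf4 and Atf4 were each higher in both anti-Act1-labelled libraries than in either WT-labelled one.

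On the other side, Pparg, an inducer of Arg1 in alternative activation, fell from 20.3 and 21.7 to 11.9 and 12.1 CPM (log2 fold change −0.81, adjusted p by edgeR, 2.16e-10). Myc, a known activator of Odc1, fell from 3.67 and 3.76 to 2.36 and 2.01 CPM (log2 fold change −0.76, adjusted p by edgeR, 0.00161). Links of Myc to Odc1 and of Pparg to Arg1 were not tested. The fall of Cebpb depended in size on WT replicate 1, whose level of 351 CPM stood apart from 212 CPM in its replicate. Its log2 fold change was −0.89 (adjusted p by edgeR, 1.09e-09), and −0.48 without that library. Cebpb was not called in 2 of 13 alternative settings. The interferon gamma receptor gene Ifngr1 fell by 0.15 on the log2 scale (adjusted p by edgeR, 0.0230), with the call lost without anti-Act1 replicate 1 (adjusted p = 0.142) and without anti-Act1 replicate 2 (adjusted p = 0.176). Atf4 and Ifngr1 were named after their values were seen. Stat6 and Il4ra, through which IL-4 induces Arg1, had log2 fold changes of 0.08 and −0.03 without a call.

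The genes whose profile over the 4 libraries was most like that of Arg1, by Euclidean distance of centred log2 CPM among 10891 genes, were Gm22, Adamtsl5 and Sdc1, at distances of 0.0270, 0.0321 and 0.0328. Among those most like Nos2 were Syde1 and Acod1, at 0.0800 and 0.103. Acod1, the enzyme that makes itaconate, was at 53.4 and 50.3 CPM with the WT label and at 122 and 129 CPM with the anti-Act1 label.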

How the data were processed

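Macrophage libraries were compared by their labels, 2 anti-Act1 against 2 WT. The authors removed low-quality reads, aligned 150 bp pairs with TopHat and deposited read counts per gene without normalization. The submitters' processing notes list Bowtie 0.12.2, HTSeq 0.6.1, mm8 and mm10. The authors also deposited FPKM, which, set against the counts and column totals, implied the same gene length in each library within 0.1% for all 10757 genes checked. Counts were tested with edgeR 4.0.16 (R 4.3.3): TMM, filterByExpr, a two-sided quasi-likelihood F test and Benjamini-Hochberg adjustment over 12494 genes. An exact permutation test of 2 against 2 libraries cannot go below p = 0.333. The p-values set each difference against a spread between these libraries that is estimated partly over all genes, not from each gene alone. A count of 0 allows up to 3 counts, or 0.0395 to 0.0549 CPM, for counting error only.

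The genes and lists were chosen with earlier results of these data known. Named were the 10 genes and, of each list, at most 6 genes past an adjusted p of 0.05 without overlap, with others only as examples of a role. Some genes that this rule would name are not reported here. Of the older symbols, Pycrl, Gatsl3, Gatsl2, Pqlc2, Gucy1a3 and Gucy1b3 were used. Similar transcripts were sought in GENCODE M21 with blastn 2.17.0 (at least 150 bases, 90% identity). The tests were repeated with DESeq2 1.42.0, with its size factors inside edgeR, without composition scaling, without or with a stricter filter (10 counts per library), with a replicate block, with limma 3.58.1 on log2(FPKM + 1) or log2(FPKM + 0.1) with at least 1 FPKM in 2 libraries, the former also over every gene with a count, and after dropping each library. The main edgeR fit, the fit with a replicate block, DESeq2 and limma on filtered log2(FPKM + 1) were also run on simulated data with known changes. The other alternatives were not.

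Marker lists of other cell types, besides the epithelial and Y-linked ones in the results, summed to 1.30 to 2.19 CPM for fibroblasts, 6.57 to 7.43 CPM for neutrophils and 4.26 to 5.31 CPM for dendritic cells. T cell markers summed to 25.2 to 31.0 CPM, nearly all of it Cd4, with Cd3e at most 0.0791 CPM.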

Additional observations from a re-analysis of the deposited data

How the results depend on the processing

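The count of called genes, 2586, was 1092 by limma on unfiltered log2(FPKM + 1), 1967 to 2632 under the other settings with all libraries, and 1671 to 2543 with a library left out. The balance of calls, 1366 higher and 1220 lower, turned to 1105 and 1411 without composition scaling, and to 914 and 1060 or 910 and 1057 with limma on filtered log2(FPKM + 1) or log2(FPKM + 0.1). Of the 7 genes added for their role 4 were called, 2 with limma without a filter, and 3 to 4 with a library left out. Of the 49 other pathway genes 9 were called, 4 with limma without a filter, and 8 with each library left out. The replicate numbers did not pair the libraries (correlation of deviations −0.0328), and the replicate block gave 2406 called genes, 3 of the 7 (without Sat1, adjusted p = 0.0643) and 9 of the 49. Without composition scaling Sat1 had an adjusted p of 0.0600. Of 13 alternatives 7 lost the call of Sat1, and its adjusted p ran from 0.00364 to 0.287. Slc7a1 lost its call with limma without a filter (adjusted p = 0.0616), and Slc7a2 and Odc1 kept theirs in all 13. The log2 fold changes ranged from 0.61 to 0.65 for Arg1, 1.27 to 1.40 for Nos2 and 1.49 to 1.998 for Ass1. None of the 17 listed genes called changed direction in any alternative that tested them, and between 10 and 17 kept the call. The low level of Slc7a5 limits what its counts can show.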
